A study of Mus musculus with 6 samples.

Results

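The Suz12 and Ring1B peak lists of mouse embryonic stem cells were compared peak by peak, to ask how closely the edges of the sites bound by Polycomb repressive complex 2 (PRC2) and by PRC1 coincide. All 6982 Ring1B peaks and all 8054 Suz12 peaks were used, together 15036 of the 24662 peaks in the 4 lists of the series. A Ring1B peak and a Suz12 peak were paired when they shared at least 1 bp. Each list came from 1 chromatin immunoprecipitation and sequencing (ChIP-seq) library of wild-type E14Tg2A cells, an embryonic stem cell line of strain 129/Ola, cultured without feeder cells in serum and leukemia inhibitory factor. The Ring1B antibody was made in the authors' laboratory, and the Suz12 antibody was bought from Abcam. The Suz12 library was first deposited under another sample record. Lists for Cbx7 and RYBP, from the same line and culture, were used for comparison, and the 2 libraries made with rabbit IgG were not analysed here.

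PRC2 trimethylates lysine 27 of histone H3, and it needs its subunit Suz12 for stability and activity. Ring1B is the E3 ligase of PRC1 that ubiquitinates histone H2A. Canonical PRC1 contains a Cbx protein such as Cbx7, whose chromodomain binds the PRC2 mark, whereas variant PRC1 contains RYBP in place of a Cbx protein. In embryonic stem cells both complexes occupy CpG islands of silent developmental regulators, where their domains can extend beyond the island.

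The lists hold positions in mm9 and no height, score or read count, so read depth is unknown. Each target had 1 library, so differences between targets could not be set against replicates, and no p-value is given. Shares carry 95% Wilson intervals and medians carry 95% order-statistic intervals. Both describe the peaks of these lists, treat neighbouring peaks as independent and leave out the variation between libraries. The edge of a called peak can move with read depth and enrichment as well as with the extent of binding, and these cannot be told apart here.

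Ring1B and Suz12 peaks formed 6035 pairs, in which 5721 Ring1B peaks (81.9%, 81.0 to 82.8%) and 5830 Suz12 peaks (72.4%, 71.4 to 73.4%) took part. Counted in base pairs, the lists shared 12.1 Mb. This was 85.9% of the 14.1 Mb in Ring1B peaks, 77.9% of the 15.6 Mb in Suz12 peaks and 69.1% of the 17.5 Mb in either list. The Ring1B sequence outside Suz12 lay mainly in 2 places: 1.09 Mb (7.70%) in peaks with no partner and 0.859 Mb (6.09%) in the flanks of paired peaks. A further 0.0422 Mb (0.299%) lay in the gaps between several Suz12 peaks under 1 Ring1B peak. Of the Suz12 sequence, 2.21 Mb (14.2%) lay in unpaired peaks, 1.19 Mb (7.62%) in flanks and 0.0362 Mb (0.233%) in such gaps. The surplus of Suz12 sequence was thus larger in whole peaks without Ring1B, 2.21 against 1.09 Mb, than in flanks, 1.19 against 0.859 Mb.

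The rule that 1 shared base pair makes a pair set few cases near its limit. Of the 6035 pairs, 4 shared at most 10 bp, 39 at most 50 bp and 55 at most 100 bp. The smallest overlap, 2 bp, joined a Ring1B peak on chromosome 13 from 56356053 to 56357325 to a Suz12 peak that ended at 56356055, and both peaks had another partner as well. Just outside the limit, 36 unpaired Ring1B peaks lay within 100 bp of a Suz12 peak and 47 unpaired Suz12 peaks within 100 bp of a Ring1B peak.

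Overlapping peaks were joined into 5516 separate groups, of which 5097 (92.4%, 91.7 to 93.1%) held 1 Ring1B and 1 Suz12 peak. In these one-to-one pairs neither peak overlapped a further peak of the other list, although a neighbouring piece without a partner may lie beside them. Within the pairs the Suz12 start lay at a median of 10 bp before the Ring1B start (offset of Suz12 minus Ring1B -10 bp, -15 to -5 bp, quartiles -136 and 81 bp). The Suz12 end lay at a median of 7 bp beyond the Ring1B end (3 to 12 bp, quartiles -92 and 134 bp). Midpoints differed by a median of -3 bp (-6.5 to 1.5 bp, quartiles -98.5 and 92.5 bp), and in 98.7% of pairs each midpoint lay inside the other peak. Over all 6035 pairs the median start, end and midpoint offsets were -7, 3 and -3.5 bp. The typical signed offset was therefore small beside the spread of single pairs in either direction.

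**Figure D1:**
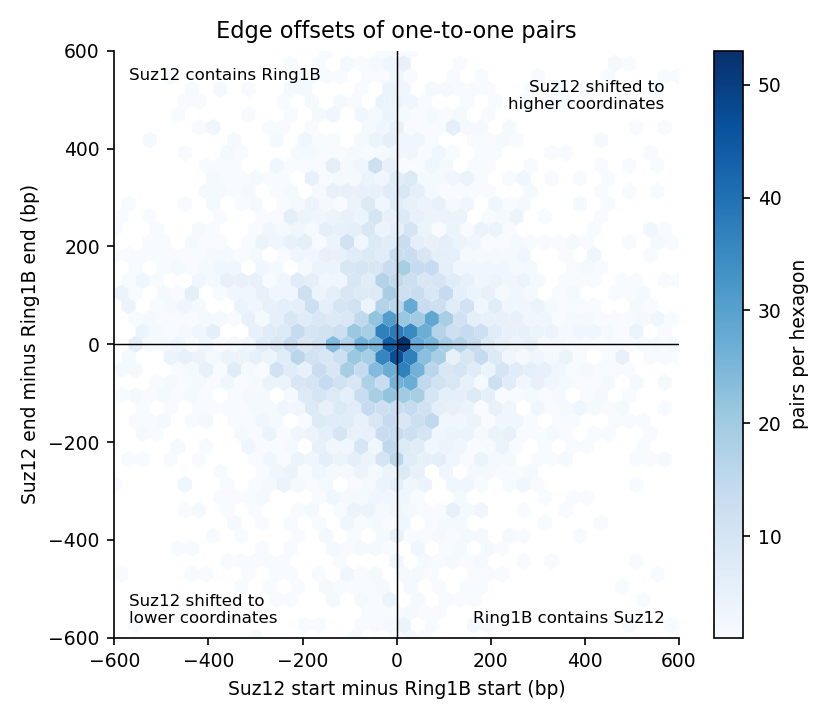
Start offset (x axis, bp) and end offset (y axis, bp) of Suz12 minus Ring1B for one-to-one pairs, with the number of pairs in each hexagon given by its colour. The 4579 of 5097 pairs with both offsets within 600 bp are drawn. They gather around 0 on both axes and spread to all 4 sides of the crossed axes.

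Regardless of direction, the starts of one-to-one pairs lay a median of 108 bp apart (103 to 113 bp, quartiles 40 and 230 bp) and the ends 111 bp apart (106 to 116 bp, quartiles 44 and 238 bp). For a median Ring1B width of 1873 bp and a median Suz12 width of 1929 bp, both peaks shared 86.4% of the span that they covered together (86.0 to 86.9%). Starts lay within 50 bp of each other in 30.2% of pairs and within 200 bp in 70.1%, and ends in 27.5% and 69.5%. Both edges lay within 200 bp in 49.4% of pairs (48.0 to 50.7%), exactly 1 edge in 40.8% and neither in 9.83%. In 47 pairs (0.922%) both edges lay more than 500 bp apart. Over all pairs, both edges lay within 200 bp in 42.5%. A single pair had the same start and end in both lists, a peak of 217 bp on chromosome 1 from 8659177 to 8659394, named here after its values were seen.

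Neither complex's peak regularly enclosed the other's. Among all pairs, Suz12 contained Ring1B in 1593 (26.4%, 25.3 to 27.5%) and Ring1B contained Suz12 in 1405 (23.3%, 22.2 to 24.4%). In 1555 pairs (25.8%) Suz12 was shifted to lower coordinates at both edges and in 1481 (24.5%) to higher coordinates. Among one-to-one pairs Suz12 contained Ring1B in 28.3% (27.1 to 29.5%) and Ring1B contained Suz12 in 22.8% (21.6 to 23.9%). Suz12 reached past the Ring1B start in 53.0% of them and past the Ring1B end in 52.0%. The outward extension of Suz12 at the start and at the end was nearly unrelated across the 5097 pairs (Pearson's r = 0.08, Spearman's rho = 0.03, given as a description of pairs that share both libraries). A longer Suz12 flank on one side thus came with little or no longer flank on the other.

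Widths followed each other closely. The median width ratio of Suz12 over Ring1B was 1.006 over all pairs (quartiles 0.895 and 1.15). In one-to-one pairs it was 1.012 (interval 1.007 to 1.018, quartiles 0.928 and 1.14). Suz12 was the wider peak in 54.1% of one-to-one pairs (52.8 to 55.5%), by a median difference over all of them of 25 bp. The widths had a Spearman's rho of 0.90 across these pairs. In 98.6% of one-to-one pairs the ratio lay between 0.5 and 2, with 54 pairs above and 17 below.

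How the ratio varied with peak size depended on which width sorted the pairs. In quintiles of Ring1B width the median ratio went from 1.10 in the narrowest, with Ring1B peaks of 191 to 1218 bp, to 0.989 in the widest, with peaks of at least 2827 bp. In quintiles of Suz12 width it went the other way, from 0.960 in the narrowest to 1.02 in the widest. Sorting by a width that is part of the ratio builds in such a slope, so quintiles of the mean of both widths were used as well. There the ratio was 1.02, 1.02, 1.02, 1.01 and 1.004 from the narrowest to the widest quintile. The start offset regardless of direction rose from a median of 82 to 124.5 bp and the end offset from 85 to 128 bp. The narrowest quintile held pairs with a mean width of up to 1261 bp and the widest those of at least 2832 bp, so edges lay further apart at wide peaks by much less than the peaks were wider. The shared share of the span rose from 79.6% to 91.8%, while the share of pairs with both edges within 200 bp fell from 60.1% to 41.7%.

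**Figure D2:**
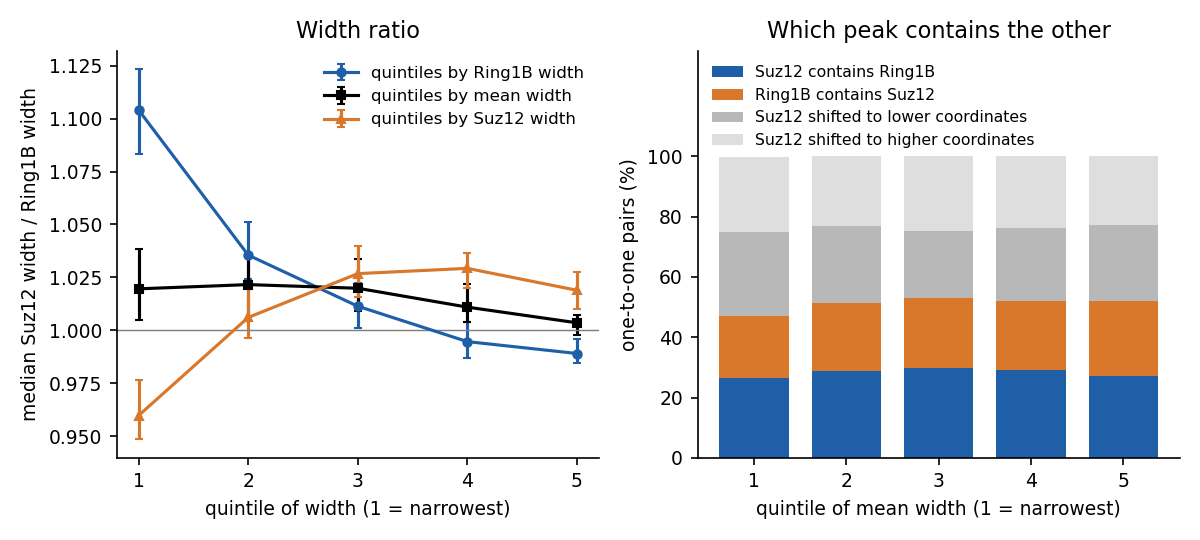
Left, median Suz12 over Ring1B width ratio of one-to-one pairs in quintiles of Ring1B width, of Suz12 width and of the mean of both, with 95% order-statistic intervals. Right, the share of pairs (%) in which 1 peak contains the other or Suz12 is shifted, by quintile of mean width. The 2 single-width curves slope in opposite ways, and the curve by mean width stays between 1.004 and 1.02.

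Of the 5 pairs with the most shared sequence, the first 3 had close edges over long distances. Ranking by shared sequence favours wide peaks that coincide, so the offsets describe these pairs only. On chromosome 8 a Ring1B peak from 126060836 to 126148721 and a Suz12 peak shared 87.9 kb, with offsets of 19 bp at the start and 44 bp at the end. On chromosome 6 a Ring1B peak from 47686949 to 47723612 (36.7 kb) had a Suz12 partner with offsets of 8 and -52 bp. A second one there, from 47600629 to 47637156 (36.5 kb), started 17 bp inside its Suz12 partner and ended at the same position. The fourth, on chromosome 2 from 33483534 to 33501623 (18.1 kb), had larger offsets of -280 and -181 bp and a second Suz12 partner. The last of the 5, on chromosome 4 from 139376645 to 139392943 (16.3 kb), lay inside a Suz12 peak that extended 147 bp further at the start and 252 bp at the end. All 5 of these Ring1B peaks carried Cbx7 and none carried RYBP. Such wide peaks leave more room for an overlap of 1 bp, so the count describes these 5 only. The shares over all paired Ring1B peaks are given below. Whether copy number gave the 3 widest their extent was not tested.

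The smallest summed offsets among pairs of peaks of at least 2 kb were found on chromosome 15, where a Ring1B peak from 40485591 to 40488095 differed from its Suz12 partner by -4 bp at the start and 0 bp at the end. The next 4, on chromosomes 12, 4, 5 and 2, had summed offsets of 5, 6, 6 and 8 bp. The chromosome 5 pair, with Ring1B from 143574664 to 143579337, was 4.67 kb wide. Of these 5 Ring1B peaks, 2 overlapped Cbx7, 1 overlapped RYBP, and the remaining 2 overlapped neither of them.

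Extreme width ratios were found where domains were divided. The pairing rule favours this, since each piece was set against the whole width of its partner. The 5 largest and the 5 smallest ratios all belonged to pairs in which at least 1 peak had a further partner. The largest, 17.1, was found on chromosome 6, where a Ring1B peak of 472 bp from 52151852 to 52152324 shared 60 bp with a Suz12 peak of 8072 bp. The smallest, 0.0413, was found on chromosome 17, where a Suz12 peak of 542 bp lay inside a Ring1B peak of 13132 bp from 86010638 to 86023770. A Ring1B peak on the same chromosome, from 86081308 to 86092961, gave the second smallest, 0.0547, and had 3 Suz12 partners.

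One-to-one pairs were then divided by whether the Ring1B peak overlapped a Cbx7 peak and an RYBP peak, which does not establish the form of PRC1 present. Where Cbx7 was present without RYBP, the median width ratio was 0.997, and Suz12 was wider in 48.3% of 1353 pairs (45.7 to 51.0%). With both subunits, Suz12 was also wider in 48.3% (44.6 to 52.1%, 691 pairs). With RYBP and no Cbx7 it was wider in 54.3% (51.2 to 57.3%, 1010 pairs), and with neither subunit in 59.9% (57.7 to 62.0%, 2043 pairs), where the median ratio was 1.04. The shared share of the span was 90.1% with Cbx7 alone, 90.9% with both, 84.4% with RYBP alone and 82.3% with neither. Median Ring1B widths differed too, at 2465, 2860, 1722 and 1423 bp, so the shared share and the edges were also compared within quintiles of mean width. The width ratio and the share with Suz12 wider are not given at equal width. Ring1B width is part of that ratio, so their differences between classes cannot be told apart from differences in width. In the middle quintile the shared share was 88.5% with Cbx7 alone, 88.9% with both, 84.9% with RYBP alone and 84.1% with neither. In the widest quintile these shares were 92.9%, 92.2%, 85.2% and 87.9%. There, both edges lay within 200 bp in 45.5% of pairs with Cbx7 alone (505 pairs) and in 23.2% of those with RYBP alone (95 pairs). In the narrowest quintile they did so in 77.6% (98 pairs) and 58.8% (187 pairs). These differences between classes were not tested.

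In these lists Suz12 edges lay nearer to Ring1B edges than did those of Cbx7 and RYBP, the PRC1 subunits, which has no replicate test. In one-to-one pairs of Cbx7 with Ring1B (2117 pairs) the starts lay a median of 212 bp apart and the ends 227 bp, and Ring1B contained Cbx7 in 71.2%. In those of RYBP with Ring1B (2195 pairs) the medians were 254 and 272 bp, and Ring1B contained RYBP in 49.0%. The comparison was repeated on the same Ring1B peaks. On the 1897 Ring1B peaks that were one-to-one with both Suz12 and Cbx7, the start offset was a median of 103 bp for Suz12 and 211 bp for Cbx7. Suz12 had the nearer start on 68.7% of them (66.6 to 70.7%) and the nearer end on 69.6% (67.5 to 71.7%). The width ratio to Ring1B was 0.997 for Suz12 and 0.811 for Cbx7. On the 1637 Ring1B peaks that were one-to-one with Suz12 and RYBP, the start offset was 116 bp for Suz12 and 294 bp for RYBP, and Suz12 had the nearer start on 73.3% (71.1 to 75.4%). A library with less signal can give narrower peaks, and the part of depth in these differences was not tested. Whether the RYBP list was called with the same setting as the others is unknown.

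**Figure D3:**
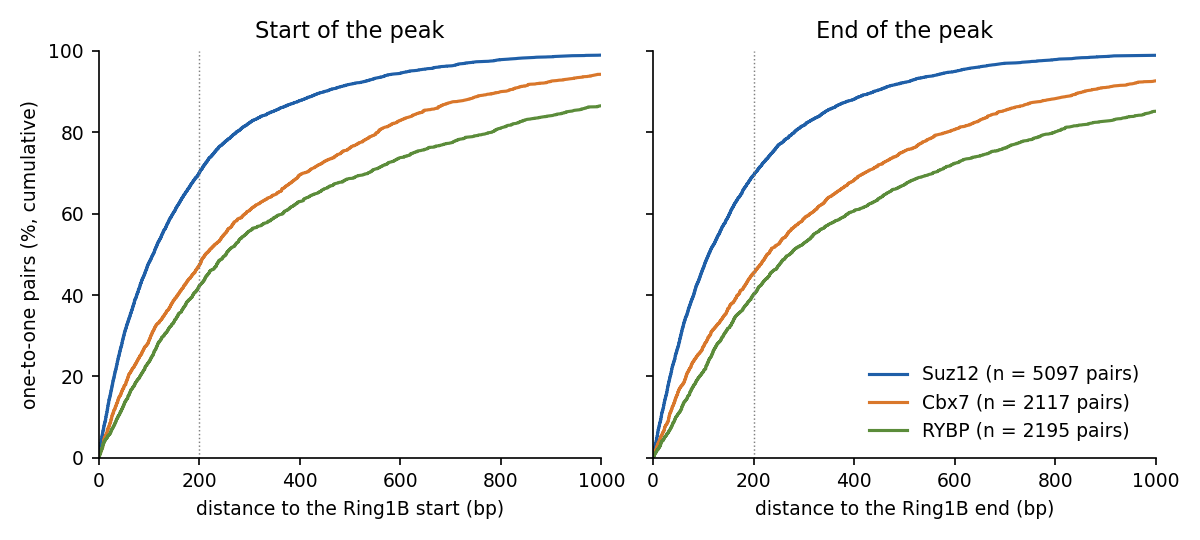
Cumulative share (%) of one-to-one pairs with a Ring1B peak against the distance (bp) between the starts, left, and the ends, right, for Suz12, Cbx7 and RYBP, with a dotted line at 200 bp. The Suz12 curve lies above the others, and 70.1% of starts are within 200 bp compared with 47.5% for Cbx7 and 42.2% for RYBP.

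Division of a domain of one list into several peaks ran in both directions. Whether the gaps between such peaks are breaks in binding or arise in peak calling was not tested. A single Ring1B peak spanned several Suz12 peaks in 224 groups (4.06%, 3.57 to 4.61%), a single Suz12 peak spanned several Ring1B peaks in 131 (2.37%, 2.01 to 2.81%), and 64 groups (1.16%) had several peaks of both. No peak had more than 3 partners. In 211 groups a single Ring1B peak lay over exactly 2 Suz12 peaks, leaving out groups with several peaks of both. There, the gap between the Suz12 peaks was a median of 79 bp (quartiles 30 and 168.5 bp), or 2.22% of a spanning peak of 3423 bp. The smaller Suz12 piece was a median of 910 bp and the larger 2386 bp. In the 127 groups of a single Suz12 peak over exactly 2 Ring1B peaks, the gap was 69 bp (quartiles 28.5 and 154.5 bp), or 2.23% of a spanning peak of 3477 bp. The outer edges of divided domains stayed close: the outer width of Suz12 over that of Ring1B was a median of 1.02 where Suz12 was divided and 0.989 where Ring1B was. Of the Ring1B peaks in the 224 groups, 77.2% carried Cbx7 (71.3 to 82.2%), compared with 40.1% of those in one-to-one pairs. They were also wider, at a median of 3572.5 against 1873 bp.

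The most divided groups held 6 peaks each. On chromosome 5 from 140014962 to 140030253, 3 Ring1B and 3 Suz12 peaks shared 14.9 kb, with outer offsets of -8 bp at the start and -51 bp at the end. On chromosome 11 from 96154048 to 96168897, 2 Ring1B and 4 Suz12 peaks shared 14.0 kb, and on the same chromosome from 96130339 to 96140009, 3 and 3 peaks shared 7.16 kb. On chromosome 6 from 114548383 to 114563279, 2 Ring1B and 4 Suz12 peaks shared 8.99 kb, with 76.8% of the Ring1B sequence inside Suz12. Another group, with 5 peaks on chromosome 11 from 118895113 to 118921867, was the longest of the 5 at 26.8 kb, and 99.8% of its Ring1B sequence lay in Suz12. Several cuts within these domains fell at different places in the 2 lists, and the outer edges differed by between 8 and 612 bp.

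**Figure D4:**
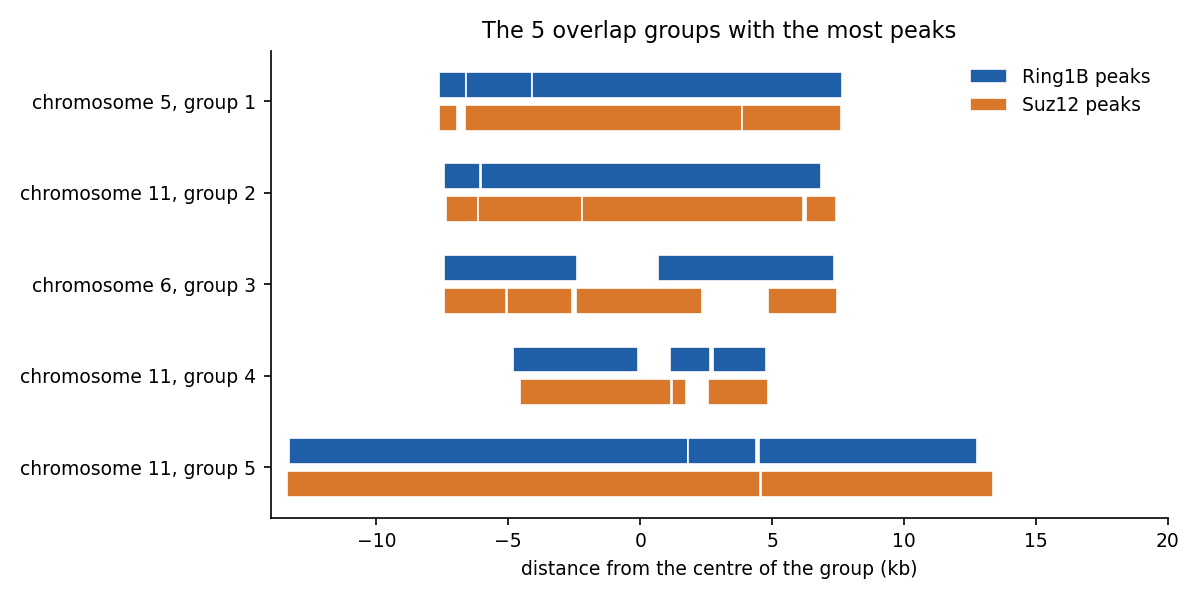
Ring1B peaks (upper bars) and Suz12 peaks (lower bars) of the 5 overlap groups with the most peaks, to scale, by distance in kb from the centre of each group. White outlines separate neighbouring peaks and can be broader than the gap itself. Several cuts between peaks fall at different places in the 2 lists, while the right-hand cuts of group 5 nearly coincide.

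The peaks without a partner were narrow in both lists. The median width of the 1261 unpaired Ring1B peaks was 772 bp (752 to 794 bp), compared with 1897 bp for paired ones, and that of the 2224 unpaired Suz12 peaks was 891.5 bp (867 to 909 bp), compared with 1934 bp. The share of Suz12 peaks with Ring1B rose from 30.4% in the narrowest quintile, of up to 897 bp, through 59.7%, 79.9% and 93.2% to 98.9% in the widest. For Ring1B peaks the share with Suz12 in the narrowest quintile was 39.7%. Unpaired Ring1B peaks overlapped Cbx7 in 1.19% (0.722 to 1.95%) and RYBP in 35.8% (33.2 to 38.5%), and paired ones in 42.8% and 32.4%. Unpaired Suz12 peaks overlapped Cbx7 in 0.764% and RYBP in 10.1%, and paired ones in 43.0% and 32.0%. The unpaired peaks of both lists thus rarely met Cbx7, while RYBP lay on a larger share of unpaired Ring1B than of unpaired Suz12 peaks. These differences were not tested. The shares with Cbx7 and RYBP were not compared at equal width, although unpaired peaks were much narrower than paired ones.

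Most unpaired peaks lay more than 10 kb from any called peak of the other list. The lists show called peaks only, so an unpaired peak is not shown to lack the other complex. Whether these distances are long for the number of peaks in the lists was not tested. From an unpaired Ring1B peak to the nearest Suz12 peak the median distance was 77543 bp (69416 to 87102 bp, quartiles 21025 and 192002 bp). Within 1 kb lay 7.53% (6.20 to 9.12%), within 10 kb 17.4% and within 100 kb 57.1%, and 23 peaks lay more than 1 Mb away. From an unpaired Suz12 peak to the nearest Ring1B peak the median was 60159.5 bp (52156 to 67026 bp, quartiles 11783 and 177945 bp). Within 1 kb lay 8.77% (7.66 to 10.0%), within 10 kb 22.7% and within 100 kb 60.3%. The nearest Ring1B peak was itself paired for 79.9% of unpaired Suz12 peaks and for 87.9% of the 505 within 10 kb, beside 81.9% of all Ring1B peaks. For unpaired Ring1B peaks the nearest Suz12 peak was paired for 66.7%, and for 74.0% of the 219 within 10 kb, beside 72.4% of all Suz12 peaks. Paired peaks lay nearer to a further peak of the other list than unpaired ones did to their nearest: the median was 38838 bp for Ring1B and 50815 bp for Suz12. Widths were similar near and far: unpaired Suz12 peaks had a median of 889 bp within 10 kb of Ring1B and 865 bp beyond 100 kb, and unpaired Ring1B peaks 762 and 753 bp.

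**Figure D5:**
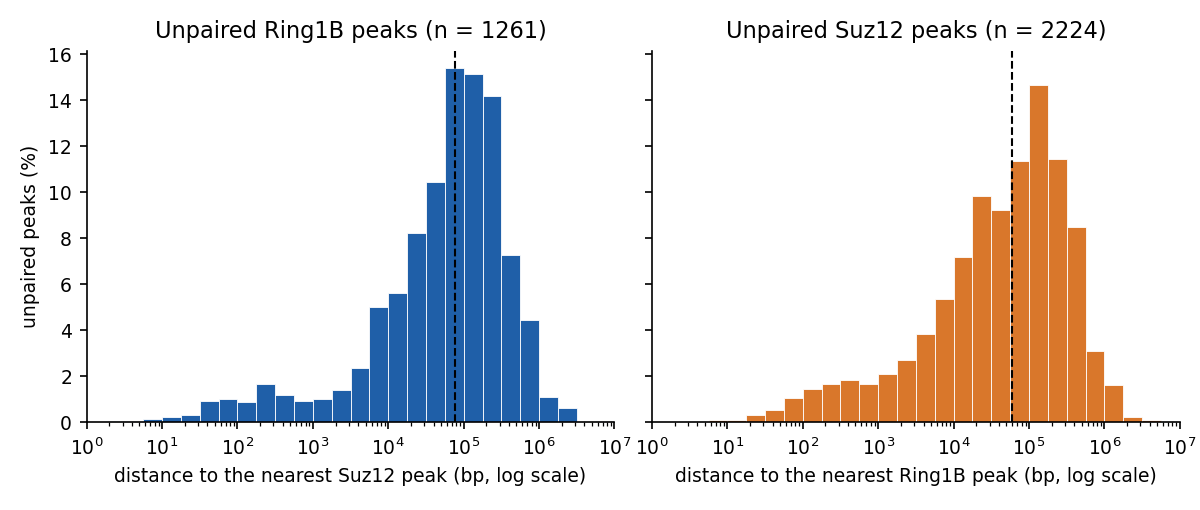
Distance (bp, log scale) from unpaired Ring1B peaks to the nearest Suz12 peak, left, and from unpaired Suz12 peaks to the nearest Ring1B peak, right, as a share of unpaired peaks (%). Dashed lines mark the medians, 77543 and 60159.5 bp. A low shoulder below 1 kb holds 7.53% and 8.77% of the peaks.

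The widest unpaired Ring1B peak, 2787 bp on chromosome X from 121306263 to 121309050, lay 147 kb from the nearest Suz12 peak and carried neither Cbx7 nor RYBP. The other 4 of the 5 widest were between 2417 and 2751 bp and lay between 90.4 and 677 kb from Suz12. One of them, on chromosome 5 from 4052100 to 4054631, carried Cbx7, and one, on chromosome 6 from 30408990 to 30411407, carried RYBP. The 5 widest unpaired Suz12 peaks were longer and lay closer to Ring1B, but the first 3 came from the same stretch of chromosome 6. Those on chromosome 6 from 114565737 to 114573049 (7312 bp) and from 114455976 to 114463072 (7096 bp) stopped 726 and 148 bp short of a Ring1B peak. The third, from 114480108 to 114484784, was 9717 bp away. The other 2 of the 5 widest, on chromosomes 19 and 7, were 3181 and 3051 bp wide and lay 3356 and 4472 bp from Ring1B. RYBP was present on 4 of these 5 Suz12 peaks, the exception being the one on chromosome 7, and Cbx7 on none. The count with RYBP rests mainly on the chromosome 6 stretch and does not describe wide unpaired Suz12 peaks in general.

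At the extremes of distance, a Ring1B peak of 169 bp on chromosome X from 84862203 to 84862372 lay 5.66 Mb from any Suz12 peak, and the next 2 most isolated, also on X, lay 3.07 and 2.99 Mb away. The most isolated Suz12 peaks were 3 on chromosome 12, of which the first, from 41570816 to 41571293, lay 3.73 Mb from Ring1B. An isolated Ring1B and an isolated Suz12 peak on chromosome 15, at 18751126 and 21040617, were each other's nearest at 2.29 Mb. At the other extreme, and among unpaired peaks of at least 1 kb, the nearest Ring1B peak, 1253 bp on chromosome 11 from 96189946 to 96191199, ended 4 bp before a Suz12 peak. The nearest Suz12 peaks of that size, on chromosomes 17 and 2, each lay 28 bp from a Ring1B peak.

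Pairing and geometry were also described by chromosome. Across the 19 autosomes and X, the share of Ring1B peaks with Suz12 ranged from 76.8% on chromosome 3 (72.1 to 80.8%) to 86.4% on chromosome 15 (82.1 to 89.8%). The share of Suz12 peaks with Ring1B ranged from 67.3% on chromosome 12 (62.3 to 71.9%) to 78.3% on X (72.7 to 83.0%). Median width ratios of one-to-one pairs stayed between 0.983 on X and 1.04 on chromosome 4. The share of these pairs with both edges within 200 bp ranged from 41.8% on chromosome 15 to 54.8% on chromosome 3. Differences between chromosomes were not tested. On chromosome Y, with 3 Ring1B and 5 Suz12 peaks, no pair was found.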

How the data were processed

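Each list deposited by the authors holds other values than counts or scores: the start and end of every peak in bp. Build mm9 and the tools Bowtie 0.12.7 and MACS 1.3.7.1 are named, per the submitters' processing notes, without their roles. For the control library, the threshold and the pooling of replicates the sources used here say nothing. The name of the RYBP list ends in another number than the names of the other lists, without a stated meaning. Whether RYBP peaks were called with the same setting as the others is therefore unknown. Lists were assigned to samples by target. Peak width was end minus start, and no list had overlapping peaks.

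Pairs shared at least 1 bp. Offsets are Suz12 minus Ring1B. Distances run between edges. Cbx7 or RYBP was present when its peak shared 1 bp. Read depth is unknown, so intervals (95%, Wilson or order-statistic) cover the sampling of peaks only. No test between targets was possible with 1 library each.

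Members, lists and the rule for named items were chosen with earlier results of these data known. The rule takes 5 items each: most shared bp, closest edges, largest and smallest width ratio, most peaks in a group, and widest, farthest and nearest unpaired peaks. For some rules only the leading items are described. Genes and sequences are not named, since annotation and genome of mm9 were not used here. Alternatives were an overlap of 50% of the shorter peak, a distance of 1 kb, peaks of at least median width, merging within 1 kb, one-to-one pairs, other edge tolerances, midpoint distances, and leaving out X and Y or peaks over 20 kb. The functions were tested on simulated data. Python 3.11.15, numpy 2.4.6, pandas 2.3.3, SciPy 1.17.1 and matplotlib 3.10.9 were used.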

Additional observations from a re-analysis of the deposited data

How the results depend on the processing

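No paired analysis was possible because each target had 1 library. A value was taken as moved when it left the 95% interval of the reported one. Pairing peaks up to 1 kb apart raised the share of Ring1B peaks with Suz12 to 83.3% and of Suz12 peaks with Ring1B to 74.8%. Peaks of at least median width gave 91.4% and 80.3%, a median start offset of -1 bp, a width ratio of 0.999, Suz12 containing Ring1B in 24.9% of pairs and Ring1B containing Suz12 in 24.6%. Merging peaks of a list within 1 kb gave start and end offsets of -17 and 13 bp, a width ratio of 1.02, containment of 29.6% and 21.6%, and 98.3% of groups as one-to-one. Requiring 50% of the shorter peak gave 93.97% of groups as one-to-one. With one-to-one pairs alone, Suz12 contained Ring1B in 28.3% and both edges lay within 200 bp in 49.4%. The width ratio was then 1.012, compared with 1.006 over all pairs. Over all pairs, tolerances of 50 and 500 bp gave 7.64% and 73.4%. Leaving out peaks over 20 kb put 85.8% of Ring1B and 77.7% of Suz12 sequence in the other list, and leaving out X and Y put 86.05% and 77.8% there. For these shares of sequence the interval took single base pairs as independent (85.90 to 85.93% for Ring1B, 77.90 to 77.94% for Suz12). It is therefore far too narrow, and a value that leaves it says little. The cause of the changes in this section was not tested. Midpoint and end offsets were within 20 bp of 0 in all settings run. Medians of a few bp have no replicate error, and the part of read depth, which is unknown, was not tested.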

Other observations

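Neighbouring peaks of the same list could lie very close together. Of 6961 gaps between neighbouring Ring1B peaks, 276 (3.96%) were at most 100 bp, and the smallest was 2 bp. Of 8033 gaps between Suz12 peaks, 341 (4.24%) were at most 100 bp, and the smallest was 1 bp. A single Suz12 peak spanned 133 of the 276 short Ring1B gaps (48.2%, 95% Wilson interval 42.4 to 54.1%), and a single Ring1B peak spanned 201 of the 341 short Suz12 gaps (58.9%, 53.7 to 64.0%). For 54 of the 276 (19.6%, 15.3 to 24.6%), the other list had a gap of at most 100 bp within 100 bp of the same place. Cbx7 peaks had 107 such gaps among 2733 (3.92%) and RYBP peaks 50 among 6852 (0.730%).

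On chromosome 6 a window from 114400000 to 114600000, chosen after the values were seen because it held the 3 widest unpaired Suz12 peaks, contained 29 Suz12, 16 Ring1B, 43 RYBP and no Cbx7 peaks. Suz12 covered 128 kb of it, RYBP 111 kb and Ring1B 65.2 kb. All 16 Ring1B peaks there were paired with Suz12, while 8 of the 29 Suz12 peaks had no Ring1B partner, and each of these 8 overlapped RYBP. Over the genome 10.1% of unpaired Suz12 peaks did so, but this share cannot be set against the count in the window. The 3 peaks by which the window was chosen are among the 8, and all 3 carried RYBP. With 111 kb of the window in RYBP peaks, there was also much room for an overlap of 1 bp. The share with RYBP among the paired Suz12 peaks of the window is not given, so no conclusion on unpaired peaks is drawn.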
